A study of Camelus dromedarius with 4 samples.

Results

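Axon guidance genes of the ephrin, semaphorin, slit and netrin systems were read in the supraoptic nucleus of the dromedary camel, the hypothalamic nucleus whose magnocellular neurones make vasopressin and oxytocin. Members were chosen by symbol alone, as every row of the season-means table whose name begins with EFNA, EFNB, EPHA, EPHB, SEMA, PLXN or UNC5, or with SLIT, ROBO or NTN followed by a digit. The table held 70 such rows, and the 68 with a mean in both seasons were kept, out of 16053 gene symbols with both means. The name rule also took in UNC50, a Golgi and endoplasmic reticulum protein with no known part in guidance, and UNC5CL, which resembles the inner part of the UNC5 receptors but has no netrin-binding ectodomain.

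The 4 libraries came from adult male dromedaries of the Tergui breed in the Algerian Sahara, all hydrated and slaughtered for food. There were 2 winter libraries (replicates 2 and 3, animals from El Oued in January) and 2 summer libraries (replicates 1 and 2, animals from Ouargla in June). Every winter animal came from one town and one day and every summer animal from another, so season, place and date cannot be told apart. Per library, 4379162 to 6902037 reads fell on 64989 gene models, and 72.2% to 79.3% of the tallied alignments lay off the gene models or were not unique. The libraries were made from dissected tissue, so fewer cells of a type and less RNA per cell cannot be told apart.

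Guidance molecules are cues and receptors that steer growing axons and, in the adult brain, act at synapses, on glia and on blood vessels. Ephrins are membrane-bound ligands of the Eph receptor tyrosine kinases, and signals pass into both touching cells. Semaphorins act through plexins, with neuropilins as co-receptors for the secreted class, slits act through ROBO receptors, and netrins act through DCC, neogenin and the UNC5 family. The supraoptic nucleus is known for reversible remodelling of its neurones, glia and synaptic contacts, and the comparison asks which of these genes differed there between winter and summer.

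Values are the authors' season means, each the average over 2 libraries of read counts divided by a size factor, written here as normalized counts. They are not divided by gene length, so a level is compared between seasons and not between genes. The table gives 1 mean per gene and season and no spread, so a ratio of means carries no test. For 39 of the 68 genes the pair of whole read counts behind each mean could be solved without ambiguity, and those counts were tested. The libraries behind these reads are known only by their size factors, not by replicate number, and are called the larger-factor and the smaller-factor library of a season. Values are given in that order.

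Of the 68 genes, 57 reached a mean of 10 or more in at least 1 season, and among these the larger differences lay on the winter side. A winter mean more than 2-fold above the summer mean was found for 5 of 57 genes (8.77%), against 2.72% of the 13811 symbols that reached the same level. These were EFNA3, EFNB3 and EPHB6 of the ephrin system, the semaphorin SEMA6B and the netrin receptor UNC5A. A summer mean more than 2-fold above the winter mean was found for 0 of 57 genes, against 4.53% of all symbols (7.26% in either direction). Past 1.5-fold, 14 genes were higher in winter (24.6%, against 10.1% of all symbols) and 3 were higher in summer (5.26%, against 12.1%). In either direction these were 17 of 57 (29.8%, against 22.3%). The winter mean was the higher one for 36 of 57 genes (63.2%, against 46.2%), and the median log2 ratio, winter over summer on the log2(mean + 1) scale, was 0.11 for the guidance genes and -0.04 for all symbols. These are descriptions of 2 pooled means per gene, without replicate error.

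**Figure D1:**
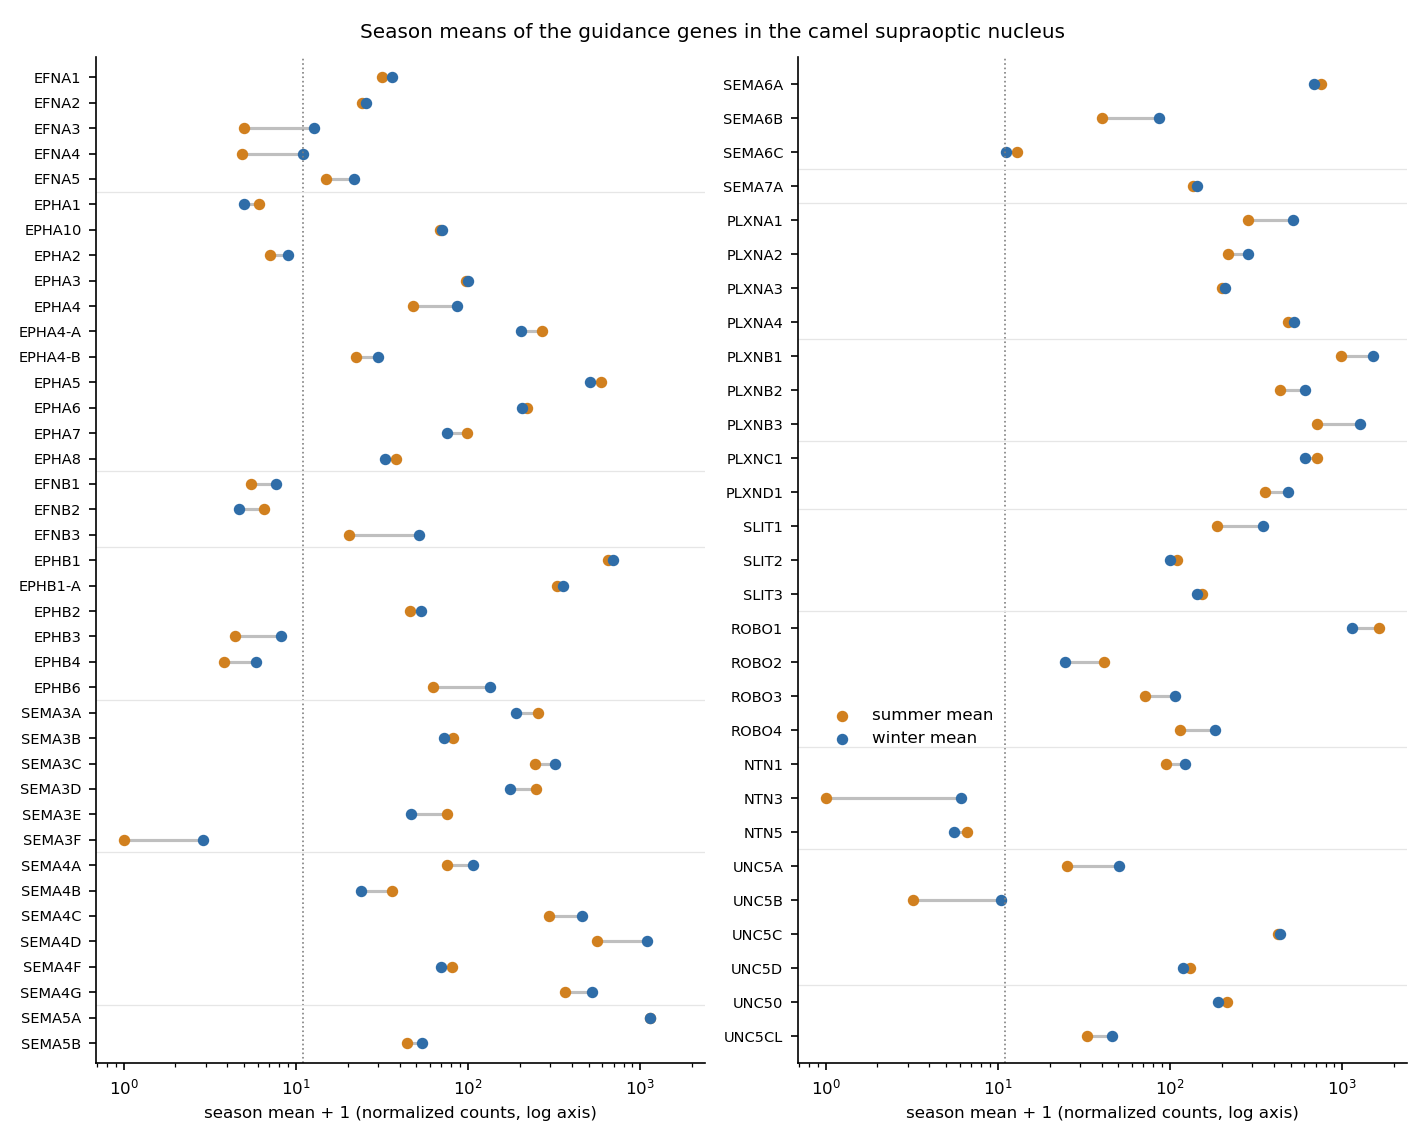
Summer and winter mean of each of the 68 guidance genes, as normalized counts plus 1 on a log axis, with a line joining the seasons and families set apart by grey rules. The dotted line marks a mean of 10. EFNB3, SEMA6B, EPHB6 and UNC5A sit to its right with winter well above summer, while NTN3 and SEMA3F are listed at 0 in summer.

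Among the ephrins, the ligands, all 5 with a mean of at least 10 were higher in winter, by 1.06- to 2.93-fold. EFNB3, a transmembrane ephrin known as a midline barrier to corticospinal axons, was read at 50.6 and 50.8 normalized counts in winter and at 4.34 and 34.2 in summer. The winter pair lay wholly above the summer pair, but the summer libraries were much farther apart than the winter ones. Its season means were 50.7 in winter and 19.3 in summer, a 2.63-fold ratio, and the fitted log2 fold change was 1.40 ± 0.76 (SE, n = 2 per season). With edgeR's quasi-likelihood test the unadjusted p was 0.105 and the Benjamini-Hochberg adjusted p 0.983.

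EFNA3, an ephrin held to the membrane by a lipid anchor, rested on few reads, 17 and 10 for winter and 0 and 7 for summer. The winter pair was again the higher one, and the means were 11.7 and 3.99, a 2.93-fold ratio (edgeR's quasi-likelihood test, adjusted p = 0.983). EFNA1, the A-class ephrin with the most reads, had means of 35.0 in winter and 30.8 in summer, and its libraries overlapped. EFNA4 had the fewest, 18 and 6 for winter and 5 and 2 for summer. That placed the winter pair above the summer pair, at means of 9.96 and 3.85, just under the level for testing. EFNB2, the lowest B-class ephrin, had means of 3.70 in winter and 5.53 in summer.

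The Eph receptors showed no common direction, with 8 of 13 higher in winter and ratios from 0.760 to 2.17. Their 2 classes differed in count, 4 of 9 for EPHA rows and 4 of 4 for EPHB rows, a difference that was not tested. EPHB6, a receptor whose kinase domain is inactive, had means of 133 in winter and 61.3 in summer, a 2.17-fold ratio. Its summer libraries were close, at 54.2 and 68.4 normalized counts. Its winter mean allowed 2 pairs of read counts, which give either 163 and 103 or 23.4 and 242, so whether both winter libraries lay above summer is not settled. EPHB1, with the most reads of its class, had means of 695 and 651, and EPHB4, with the fewest, 4.83 and 2.82. EPHA5, with the most of the A class, had means of 512 in winter and 594 in summer, and EPHA1, with the fewest, 4.0 and 5.13.

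EPHA4, a receptor that binds ephrins of both classes, appeared in 3 rows of the table and EPHB1 in 2, the extra rows carrying the suffix A or B. The reference annotation of RefSeq (assembly mCamDro1.pat) lists 1 EPHA4 gene and 1 EPHB1 gene, and none with a suffix. The row named EPHA4 was read at 106 and 64.5 normalized counts in winter and at 41.2 and 52.4 in summer. Winter lay wholly above summer there, at means of 85.1 and 46.8 (1.82-fold; log2 fold change 0.87 ± 0.43 (SE, n = 2 per season), adjusted p = 0.983 by edgeR's quasi-likelihood test). The row EPHA4-A went the other way, with means of 202 in winter and 266 in summer, and EPHA4-B had 28.8 and 21.4. Summed over the 3 rows, EPHA4 had 316 in winter and 334 in summer, a ratio of 0.946. The sum for EPHB1 and EPHB1-A was 1049 in winter and 978 in summer, a ratio of 1.07. The higher winter value of the EPHA4 row was thus not seen in the sum over its rows. The EPHA4-A and EPHB1-A rows were named after their values were seen.

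Semaphorins were higher in winter in 8 of 17 cases, and their classes stood apart. Of the secreted class 3, which repel axons through neuropilins and A-type plexins, 1 of 5 was higher in winter. Of class 4, the transmembrane ligands of B-type plexins, 4 of 6 were. The summed class 4 means were 2273 in winter and 1401 in summer, and the summed class 3 means were 800.5 and 900.4. The difference between the classes was not tested.

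SEMA6B, a transmembrane ligand of A-type plexins, had the lowest unadjusted p of the 28 guidance genes that entered the test. Its normalized counts were 106 and 63.5 in winter and 23.9 and 54.7 in summer. The libraries did not overlap, although the lower winter library and the higher summer library were close. The means were 84.9 and 39.3, a 2.16-fold ratio, with a log2 fold change of 1.13 ± 0.52 (SE, n = 2 per season), an unadjusted p of 0.0624 and an adjusted p of 0.983 by edgeR's quasi-likelihood test. The other class 6 genes were near level, SEMA6A at 686 in winter and 754 in summer and SEMA6C at 10.1 and 11.8.

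SEMA4D, a ligand of plexin-B1 known from oligodendrocytes and immune cells, had a winter mean of 1096 and a summer mean of 556, a 1.97-fold ratio just inside the 2-fold line. Its means allowed 112 pairs of library values, of which 27 place the winter pair wholly above the summer pair. The reverse cannot occur where the winter mean is higher, and a count of solutions is not a probability. SEMA4C, a ligand of plexin-B2, had means of 457 and 293 (1.56-fold), and its summer libraries held 333 and 253. In 2 of its 3 solutions both winter libraries lay higher. SEMA4B and SEMA4F were the class 4 members that were higher in summer, SEMA4F at means of 79.3 against 68.4 in winter (1.16-fold), with libraries that overlapped. SEMA4B, the class 4 member with the fewest reads, had 21.1 and 24.3 in winter and 28.2 and 42.2 in summer, so summer lay wholly above winter, at means of 22.7 and 35.2 (1.55-fold higher in summer; adjusted p = 0.983 by edgeR's quasi-likelihood test).

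SEMA3E, which signals directly through plexin-D1 and is known from blood vessel patterning, was read at 41.5 and 49.7 in winter but at 23.9 and 125 in summer. One summer library lay below both winter libraries and the other above both, so the higher summer mean, 74.6 against 45.6 in winter (1.64-fold), came from 1 library. SEMA3C, the class 3 member with the most reads, was the exception on the winter side at 318 against 243. SEMA3F had the fewest, 5 and 0 for winter and none for summer. Of the remaining semaphorins named for having the most or fewest reads of their class, SEMA5A had means of 1140.5 in winter and 1143 in summer. SEMA5B had 53.2 and 43.1, and SEMA7A, a lipid-anchored ligand of integrins and plexin-C1, had 142 and 136.

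Plexins, the semaphorin receptors, were mostly on the winter side, with 8 of 9 higher in winter and ratios from 0.857 to 1.83. PLXNA1, the receptor that pairs with neuropilins, had means of 516 in winter and 281 in summer (1.83-fold), with summer libraries at 247 and 316. In 2 of its 3 solutions both winter libraries lay above these. PLXNB3, a receptor for SEMA5A known from the oligodendrocyte lineage, had means of 1266 and 711 (1.78-fold). PLXNB1, the receptor for SEMA4D, had 1511 and 987 (1.53-fold). Winter lay wholly above summer in 28 of 204 and in 21 of 234 solutions, respectively. PLXNB2, the receptor for SEMA4C, completed the B class at 604 and 431 (1.40-fold). PLXND1 had 484 in winter and 353 in summer. PLXNA4 (520.5 and 481) and PLXNA3 (207 and 198) were nearly level, and PLXNC1 was the exception, at 607 in winter and 709 in summer. None of the 9 plexins had a single solution in both seasons, so none was tested.

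**Figure D2:**
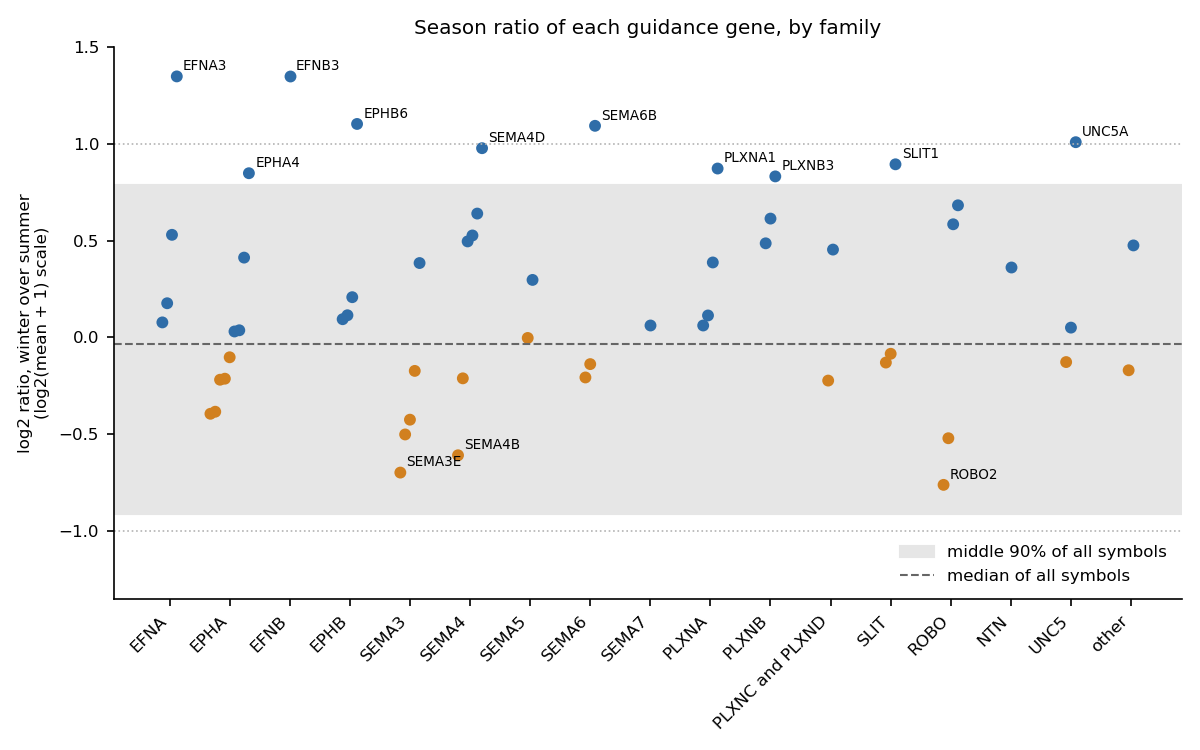
Log2 ratio of the winter over the summer mean, on the log2(mean + 1) scale, for the 57 guidance genes whose mean was 10 or more in at least 1 season, arranged by family. Each point is a gene, blue where winter was higher and orange where summer was; the grey band holds the middle 90% of all 13811 symbols, the dashed line is their median and the dotted lines mark a 2-fold ratio of values on that scale. The plexins and ephrins lie almost wholly above 0, class 3 semaphorins mostly below.

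The slit system split by gene. SLIT1, a secreted repellent made largely by neurones, had means of 346 in winter and 186 in summer (1.86-fold), with summer libraries at 167 and 204, and in 2 of its 3 solutions both winter libraries lay higher. SLIT2, with the fewest reads of the family, was level at 98.9 and 108. Of the receptors, ROBO1 had 1141 in winter and 1638 in summer, and of its 3190 solutions 209 place summer wholly above winter. ROBO2 followed it, with means of 23.5 in winter and 40.5 in summer (1.73-fold higher in summer). Its libraries held 22.6 and 24.3 in winter and 20.6 and 60.4 in summer, so that higher mean came from 1 summer library (log2 fold change -0.78 ± 0.66 (SE, n = 2 per season), adjusted p = 0.983 by edgeR's quasi-likelihood test).

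ROBO3, known from commissural axons at the midline, went the other way. It had 109 and 104 normalized counts in winter and 74.8 and 66.1 in summer. Both pairs were tight and did not overlap, at means of 106 and 70.5 (1.51-fold; log2 fold change 0.59 ± 0.34 (SE, n = 2 per season), unadjusted p = 0.125 and adjusted p = 0.983 by edgeR's quasi-likelihood test). ROBO4, the endothelial member, had means of 182 and 113 (1.61-fold). Its summer libraries lay at 105 and 121, and in 1 of its 3 solutions both winter libraries were above them.

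Among the netrins and UNC5 receptors with a mean of 10 or more, NTN1 and UNC5C were higher in winter by 1.29- and 1.04-fold, UNC5D was higher in summer by 1.09-fold, and only UNC5A passed 1.5-fold. UNC5A, a receptor that turns netrin into a repellent and is expressed mainly in neurones, had 53.6 and 45.5 normalized counts in winter and 15.2 and 33.1 in summer. The libraries did not overlap, and the means were 49.5 and 24.1 (2.05-fold; log2 fold change 1.05 ± 0.57 (SE, n = 2 per season), unadjusted p = 0.104 and adjusted p = 0.983 by edgeR's quasi-likelihood test). UNC5C, with the most reads of the family, had means of 436 and 421. UNC5B had few reads, 11 and 10 for winter and 2 and 2 for summer, giving means of 9.44 and 2.22, a 4.24-fold ratio with the winter pair wholly above the summer pair. NTN1, the best known attractant, had 138 and 105 in winter and 65.1 and 123 in summer, overlapping. NTN3 had 8 and 4 reads for winter and none for summer, at least 1.54-fold higher in winter when the summer libraries are set at 3 reads each.

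In all, 11 genes had a mean under 10 in both seasons. They were EFNA4, EFNB1, EFNB2, EPHA1, EPHA2, EPHB3, EPHB4, NTN3, NTN5, SEMA3F and UNC5B. Their means ran from 0 to 6.05 in summer and from 1.89 to 9.96 in winter, and they stayed out of the fit. With them included, edgeR's quasi-likelihood test called 1 of 39 genes at an unadjusted p under 0.05 with more than a 2-fold difference, NTN3 (unadjusted p = 0.0395, adjusted p = 0.984, against 1.61% of all symbols). RefSeq lists 3 more genes under the same name rule, NTN4, SEMA3G and SEMA6D, which were not analysed here. Just outside the 1.5-fold line on the winter side were EFNA5 (1.48-fold) and SEMA4G (1.44-fold), and on the summer side ROBO1 (1.44-fold) and SEMA3D (1.42-fold).

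On the recovered reads, 28 guidance genes had a level of at least 10 and entered the fit over 7667 symbols. By the rule of the study, an unadjusted p under 0.05 with more than a 2-fold difference, 0 of 28 were called by edgeR's quasi-likelihood test, against 1.67% of all symbols. An unadjusted p under 0.05 was reached by 0 of 28 (1.98% of all symbols) and an adjusted p under 0.05 by 0 of 28 (0.0%). By the rule, the edgeR exact test also called 0 of 28 (1.38% of all symbols) and so did DESeq2 (0.77%), and by the adjusted p each called 0 of 28 (0.013% of all symbols). With TMM factors (1.9% of all symbols) or DESeq2's size factors (1.85%) the rule called 1 of 28, SEMA6B, whose adjusted p was then 0.992 or 0.995 in the quasi-likelihood test. The winter pair lay wholly above the summer pair for 6 genes, EFNA3, EFNB3, EPHA4, ROBO3, SEMA6B and UNC5A (21.4%, against 13.3% of all symbols). The summer pair lay above for 2, EPHA8 and SEMA4B (7.14%, against 17.2%). In total 8 of 28 did not overlap (28.6%, against 30.5%). This count depended on the scaling, with 11 of 28 under TMM factors (39.3%, against 29.5% of all symbols) and 12 of 28 under DESeq2's size factors (42.9%, against 29.4%). With 2 against 2 libraries the smallest exact two-sided permutation p is 0.333. The p-values measure the spread between these 4 samples only. Means of high counts allow many pairs of reads and rarely a single one, so the tested genes are those with fewer reads, and the plexins, SEMA4D, SLIT1 and ROBO1 are not among them.

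**Figure D3:**
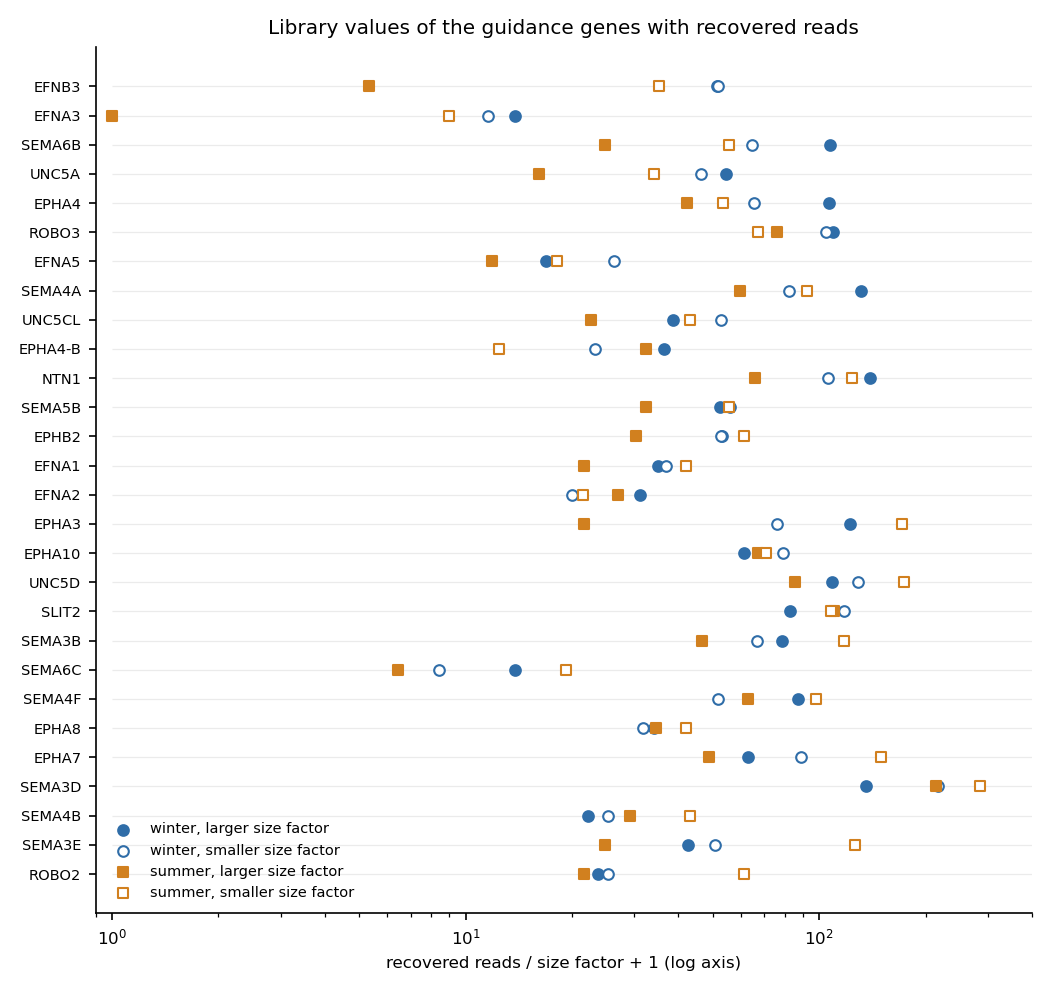
Recovered reads divided by the size factor, plus 1 on a log axis, in each of the 4 libraries for the 28 guidance genes in the fit, ordered by season ratio with the highest winter ratio on top. Circles are winter and squares summer; filled marks are the larger-factor library of a season and open marks the smaller-factor one. ROBO3 shows 2 tight pairs, whereas in EFNB3, EPHA3 and SEMA3E the summer squares lie far apart.

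The summer libraries stood apart from each other over the whole table. Reads in only 1 of the 2 summer libraries were found for 1317 symbols in the smaller-factor library and for 131 in the larger-factor library, against 167 and 260 in winter, and the count files had reads on 40178 gene models in 1 summer library and on 49320 to 52456 in the other 3. The part of this in the values below was not tested. In the guidance genes, too, the summer libraries differed from each other more than the seasons did. Among the 28 genes, the median size of the log2 difference was 0.94 between the summer libraries, 0.38 between the winter libraries and 0.40 between the season means. For all symbols in the fit these were 0.64, 0.43 and 0.38. Single libraries vary more than means of 2, so these gaps are not on equal terms. The summer libraries were farther apart than the season means in 23 of 28 genes (82.1%, against 68.8% of all symbols). The difference also had a direction. The smaller-factor summer library was the higher one in 24 of 28 genes (85.7%, against 61.8% of all symbols in the fit), and more than 2-fold so in 12 (42.9%, against 26.8%). The reverse, past 2-fold, was seen in 1 (3.57%, against 6.33%). The winter libraries were more than 2-fold apart in 0 of 28 (15.0% of all symbols). Under TMM factors the 3 medians of the 28 genes were 0.72, 0.40 and 0.39. The smaller-factor summer library was then higher in 23 of 28 (82.1%, against 51.7%), by more than 2-fold in 8 (against 1683 of 7667 symbols).

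More genes can be counted when only the summer mean needs a single solution, which 48 of the 57 genes and 12177 symbols had. There the smaller-factor library was higher in 38 of 48 genes (79.2%, against 54.4%), and the median log2 difference between the summer libraries was 0.59 for the guidance genes and 0.07 for all symbols. The smaller-factor library was higher by more than 2-fold in 14 of 48 (29.2%, against 18.3%), and the larger-factor library in 1 of 48, EPHA4-B (2.08%, against 4.89%). A scaling shifts every gene alike, and these counts moved with it. Under TMM factors the smaller-factor library was higher in 33 of 48 (68.8%, against 42.1%), by more than 2-fold in 10 (20.8%, against 14.6%), and the larger-factor library was higher by more than 2-fold in 4 (8.33%, against 9.04%). DESeq2's size factors gave the same member counts of 33, 10 and 4.

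EPHA3, an A-class Eph receptor, and SEMA3A, the founding class 3 repellent, showed wide gaps of this kind and were named after their values were seen. EPHA3 was read at 20.6 and 171 normalized counts in summer and at 121 and 75.1 in winter. Its season means were nearly equal, 95.8 in summer and 98.3 in winter, over summer libraries that bracketed both winter ones. SEMA3A was read at 27.1 and 480 in summer, and its winter mean of 189 allowed either 143 and 234 or 3.77 and 373. Neither gene counted among those with a season difference past 1.5-fold.

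Leaving out a summer library moved the calls in opposite directions. Without the smaller-factor summer library, edgeR's quasi-likelihood test called 6 of 28 genes higher in winter by the rule of the study (15.2% of all symbols were called in either direction). They were EFNA3, EFNB3, EPHA3, EPHA4, SEMA6B and UNC5A, and EFNB3, EPHA3 and SEMA6B also reached adjusted p-values of 0.00461, 0.00673 and 0.0410 (2.83% of all symbols did). Without the larger-factor summer library, ROBO2 and SEMA3E were called higher in summer (14.5% of all symbols), SEMA3E with an adjusted p of 0.0448 (3.61% of all symbols). In these fits 1 library stood for summer and was assumed to vary like the winter pair. Leaving out the larger-factor or the smaller-factor winter library called 0 of 28 (0.457% and 0.639% of all symbols). The sign of the ROBO2 and SEMA3E differences turned when the smaller-factor summer library was left out, to log2 fold changes of 0.18 and 0.93.

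**Figure D4:**
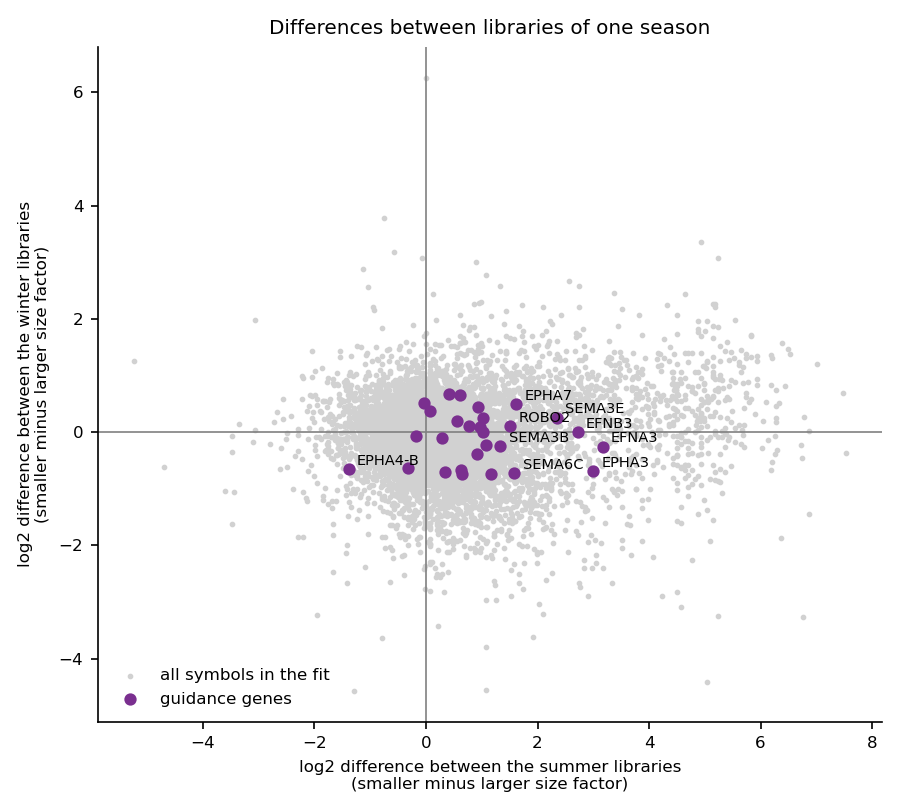
Log2 difference between the libraries of one season, smaller-factor minus larger-factor, in summer (horizontal axis) and in winter (vertical axis) for the 7667 symbols in the fit (grey) and the 28 guidance genes (purple), on the log2(normalized count + 1) scale. The guidance genes spread to the right, with EFNA3, EPHA3 and EFNB3 near 3, and stay within 1 of the horizontal line through 0.

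Cell type markers were read beside these results. The summed season means of 8 neurone markers were 3394 in summer and 5236 in winter, with 7 of 8 higher in winter. Those of the oligodendrocyte precursor list were 1169 and 2120 (4 of 5 higher), of mature oligodendrocytes 36386 and 39970 (6 of 8 higher), of endothelium 1867 and 1934 (3 of 8), of microglia 5858 and 4244 (2 of 7) and of astrocytes 37897 and 22987 (3 of 7). No marker of these lists was at 0 in a season. By library, the 3 neurone markers with solved reads summed to 533 and 277 in winter and to 157 and 364 in summer, and 3 astrocyte markers to 334 and 157 in winter and to 137 and 296 in summer. By season means the neurone list was thus higher in winter, like EFNB3, SEMA6B, SLIT1 and UNC5A, but its solved sums overlapped between the seasons. NEFL (2288 in summer, 3493 in winter) carried most of the neurone sum, and GAD1 went the other way (235 and 178). GFAP (25074 and 14423) carried most of the astrocyte sum. The solved sums of both lists were higher in the smaller-factor summer library, as most guidance genes were. The 1 ependymal marker with solved reads and enough of them, RSPH1, leaned the same way, at 8.67 and 75.2 in summer. Other solved markers summed higher in the larger-factor summer library. These were 2 of oligodendrocyte precursors (220 and 141), 3 of microglia (281 and 184), 4 of meninges (455 and 339) and 2 of pericytes (209 and 161). Within them TMEM119 and DCN went the other way. Solved markers of endothelium (4 genes, 216 and 248) and pituitary (2 genes, 44.5 and 57.0) summed higher in the smaller-factor summer library. Among the endothelial ones PECAM1 went the other way (91.1 and 80.9). The 2 pituitary markers were opposed, CGA at 8.67 and 47.9 and LHB at 35.8 and 9.12. The part of these lists in the guidance gene differences was not tested. Of the magnocellular list, 7 of 8 genes matched by symbol, AVP being the unmatched one, and the 7 summed to 1615 in summer and 2198 in winter. OXT was level at 592 in summer and 621 in winter. SCG2 was 2.16-fold higher in winter (1195 against 554) and carried the higher winter sum, with 4 of the 7 genes higher in winter. PDYN was 3.54-fold higher in summer (127 against 35.9). Its summer libraries were close (128, 127), but its winter libraries were far apart (63.4, 8.46). The 4 magnocellular markers with solved reads had winter sums of 251 and 87.8 against summer sums of 248 and 288. OTP and SIM1 split in winter as PDYN did. POU3F2 was level in winter (44.5 and 44.4) and stood at 30.4 and 60.4 in summer. The pituitary list summed to 2028 in summer and 2107 in winter, with 2 of the 5 that had enough reads higher in winter. Within it GH1 was 2.44-fold higher in winter and POMC 1.75-fold higher in summer.

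Genes that neighbour each other on the chromosome had like ratios in several cases. Only protein-coding genes of the RefSeq annotation were counted here. No other one lies between ROBO1 and ROBO2, which were both higher in summer (1.44- and 1.73-fold), or between ROBO3 and ROBO4, which were both higher in winter (1.51- and 1.61-fold). The class 3 genes SEMA3D, SEMA3A and SEMA3E follow one another and were each higher in summer, by 1.42-, 1.34- and 1.64-fold, whereas SEMA3C, with 5 genes between it and SEMA3E, was 1.31-fold higher in winter. EFNA4, EFNA3 and EFNA1 are adjacent too, with winter to summer ratios of 2.59, 2.93 and 1.13, so EFNA1 was not like EFNA3. Of other members a few genes apart, EPHB2 and EPHA8, with 3 genes between, had ratios of 1.16 and 0.856. EPHA6 and EPHA3, with 5 between, were both near level at 0.931 and 1.03. SEMA3B (0.886) lies with 3 genes between it and SEMA3F, which had no summer reads. Neighbours over all symbols were not compared. The log2 ratio also fell with gene span, the length of a gene in RefSeq. The Spearman correlation was -0.43 over 54 guidance genes with enough reads and -0.10 over 11743 symbols. The part of span in the likeness of neighbours was not tested. Close copies within a family can share reads, and how the counting divided such reads was not examined.

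The co-receptors and signalling partners of these families were read from a list. Of 94 listed partner genes, 82 had a mean of at least 10, and their median log2 ratio was 0.01, with 43 higher in winter (52.4%, against 46.2% of all symbols). Past 1.5-fold, 6 were higher in winter (7.32%, against 10.1%) and 5 in summer (6.1%, against 12.1%). Past 2-fold, 0 were higher in winter (2.72% of all symbols) and 1 in summer (1.22%, against 4.53%), FES, a cytoplasmic kinase that acts below plexin-A1, at 32.1 in summer and 13.5 in winter. The neuropilins, which form the class 3 semaphorin receptor with A-type plexins, had means of 252 in summer and 221 in winter for NRP1 and of 667 and 869 for NRP2. DCC, the attractive netrin receptor, was 1.78-fold higher in summer, at 62.4 against 35.0, opposite to UNC5A. Its reads were 32 and 79 for summer and 45 and 34 for winter, so the summer mean again came from 1 library. NEO1, or neogenin, had 1986 in summer and 2366 in winter.

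Higher in winter past 1.5-fold among the partners were LRRC4B (1.75-fold), a synaptic netrin-G ligand family member, MICAL3 (1.68-fold), of the MICAL oxidases that act below plexins, and LIMK1 (1.68-fold), the kinase of cofilin. DAG1 (1.61-fold), the dystroglycan that binds slits, RND1 (1.58-fold), a small GTPase that binds plexins, and FLRT2 (1.504-fold), a ligand of UNC5 receptors, completed them. LIMK1, RND1 and FLRT2 had solved reads. LIMK1 had 267 and 107 in winter and 106 and 116 in summer. RND1 had 58.9 and 28.6 against 29.3 and 26.2, and FLRT2 106 and 49.7 against 43.4 and 60.4. Their seasons overlapped, and each higher winter mean came from the larger-factor winter library. Higher in summer besides FES and DCC were GRIP1 (1.96-fold), a scaffold of B-class ephrins, TIAM1 (1.59-fold), an activator of Rac, and MET (1.54-fold), a kinase that associates with plexin-B1. For FES and GRIP1 the summer pair lay wholly above the winter pair. Of the partner genes, 26 entered the fit on recovered reads, and edgeR's quasi-likelihood test called 0 of them by the rule of the study and 0 by the adjusted p.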

How the data were processed

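RNA of 2 winter and 2 summer supraoptic nuclei was sequenced as stranded, ribosomal RNA-depleted libraries. The authors used TopHat to align the reads to a dromedary genome they had assembled and HTSeq to count them (versions not given in the sources used here), and the deposited count files hold raw read counts per gene model without symbols. These gave depth only, and the last 5 lines of each, tallies of reads off the gene models, were left out of it. In the deposited table the authors gave a signal per symbol and season, the average over the season's libraries of the counts after scaling with DESeq. Its ratio (an edgeR fold change) and unadjusted p-value columns are the authors' comparison and were not used.

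Each mean is a sum of 2 whole reads times 2 fixed steps, so reads were recovered by solving for all pairs of whole numbers. A single solution in both seasons was found for 9909 symbols (61.7%), and for 99.99% where both means were under 100. Reads were fitted over symbols whose mean was 10 or more in at least 1 season, with edgeR 4.0.16 in R 4.3.3 (glmQLFit, season only, size factors from the steps) and Benjamini-Hochberg adjustment. Library differences used log2 with a pseudocount of 1. Floors cover counting error only, and 2 libraries per season limit precision. The biological coefficient of variation was 0.459. Scripts were tested on simulated data. Gene names were matched to RefSeq for 65 of the 68 members.

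The members and lists were chosen with earlier results of these data known. Named were genes past 1.5-fold, genes with the most and fewest reads of each family, the 5 with the most reads, those under 10 in both seasons and any past a test. Alternatives were the exact test, DESeq2 1.42.0, TMM, DESeq2 size factors, other filters, folds and pseudocounts, and leaving out each library. Summing the EPHA4 and EPHB1 rows, dropping UNC50 and UNC5CL, and the fit on low means were added after seeing the data. Figures were drawn with matplotlib 3.10.9.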

Additional observations from a re-analysis of the deposited data

How the results depend on the processing

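No paired analysis was possible because the seasons share only replicate number 2 in the labels and the recovered reads carry no replicate number. The count of 5 of 57 genes past 2-fold (8.77%, against 7.26% of all symbols) became 17 at 1.5-fold (29.8%, against 22.3%). It was 0 at 3-fold and 8 without the filter on low means. It was 4 with a mean of at least 10 in both seasons and 6 with means rescaled to a median log2 ratio of 0. With split rows summed or without UNC50 and UNC5CL it stayed 5. For settings other than 1.5- and 2-fold the share over all symbols was not taken. The median log2 ratio stayed between 0.09 and 0.19. The count past the rule of the study, 0, became 1 with TMM and 1 with DESeq2's size factors, SEMA6B in both (unadjusted p 0.0405 and 0.0382, adjusted p 0.992 and 0.995), and 1 without the low-count filter, NTN3 (unadjusted p 0.0395, adjusted p 0.984). It was 0 with the exact test (1.38% of all symbols) and with DESeq2 (0.77%). It was also 0 of 22 among symbols with both means under 100 (1.59%). Leaving out 1 library gave 0 to 6 by the rule and 0 to 3 by the adjusted p, as described above. The 8 genes whose seasons did not overlap were 11 with TMM, 12 with DESeq2's size factors and, out of 39 genes, 11 without the filter (28.2%, against 29.1% of all symbols). There were 186 single-gene values under alternatives other than leaving out a library, and most kept their direction and their side of the 2-fold line. With a pseudocount of 5 the log2 ratio fell below that line, from 1.35 to 0.894 for EFNA3 and from 1.01 to 0.905 for UNC5A. With rescaled means SEMA4D rose past it, from 0.977 to 1.01, and SEMA5A changed sign, from -0.0029 to 0.034. A pseudocount cannot turn the direction of a ratio of the same 2 means, so those values could not test it. With a library left out, 8 of 56 fitted log2 fold changes changed sign, in 7 of 14 genes. The fitted values ranged from -0.23 to 0.76 for EFNA1, -0.018 to 0.90 for NTN1 and -0.043 to 0.75 for SEMA5B, which were negative without the larger-factor summer library. They ranged from -1.36 to 0.18 for ROBO2 and from -1.46 to 0.93 for SEMA3E, positive without the smaller-factor summer library, and from -0.81 to 0.92 for SEMA6C, positive without that library and, at 0.13, without the smaller-factor winter library. For SLIT2 they ranged from -0.41 to 0.10, positive without the larger-factor winter library. The winter genes kept their sign but not their size, with EFNB3 from 0.57 to 3.51, EFNA3 from 0.56 to 6.66, SEMA6B from 0.64 to 1.83, UNC5A from 0.58 to 1.70 and EPHA4 from 0.46 to 1.17. The lower ends for EFNB3, EFNA3, SEMA6B and UNC5A came without the larger-factor summer library, the lower summer library of each. None of these genes then stayed past 2-fold. The upper EFNA3 value is against a library with 0 reads and is no bound. ROBO3 ran from 0.50 to 0.68 and SEMA4B from -0.89 to -0.32. The cause was not tested. Genes with many reads, the plexins among them, could not be tested, because their means have several solutions.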
